A study of Mus musculus with 26 samples.

Results

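Transcripts of 91 nuclear genes of oxidative phosphorylation were followed in lung macrophages of mice before and after lipopolysaccharide (LPS), a bacterial wall component that sets off acute inflammation. The genes were chosen by name from the 55487 genes of the count table: protein-coding symbols that begin with Nduf, Uqcr or Atp5, the symbols Cyc1, Cycs, Sdha, Sdhb, Sdhc and Sdhd, and symbols that begin with Cox4i, Cox5, Cox6, Cox7 or Cox8. Of 96 matching entries, 91 had at least 260 counts over the 26 libraries. The smallest totals above that minimum were 834 counts for Cox6a2 and 970 for Ndufa4l2, and the largest below it was 172 for Cox4i2, followed by 18 for Cox8b and 0 for Cox7b2, Cox8c and a second entry named Atp5o. The 91 genes comprise 36 subunits of complex I (7 of its catalytic core and 29 accessory), 8 Ndufaf assembly factors of complex I, all 4 subunits of complex II, 9 subunits of complex III, cytochrome c (Cycs), 14 subunits of complex IV, 16 subunits of complex V and 3 genes that are no fixed subunit (Atp5s, Cox7a2l and Ndufa4l2). They lie on 19 chromosomes, 3 of them on the X.

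RNA came from 2 macrophage populations of mouse lung, called resident AM (alveolar macrophages) and BM-derived macrophages in the labels. Resident AM were taken from untreated mice, called day 0 here (3 libraries), and at day 1 (4), day 3 (3) and day 7 (4) after LPS. BM-derived macrophages were taken at day 1 (5), day 3 (4) and day 7 (3) after LPS. The route of LPS is given only as IT. No strain, sex, dose or sorting scheme is given in the labels, the word "Young" stands only in the descriptions of the day 0 libraries, and it is not stated that libraries of a group are from separate animals. A p-value here reflects only how libraries vary within groups, which may be technical. In the fit of all groups that spread is taken over all 7 groups, not only over the groups compared. In what follows AM and BM stand for the populations, CPM for read counts scaled by TMM to a common library total, and "called" for an adjusted p under 0.05 in edgeR's quasi-likelihood test with Benjamini-Hochberg (BH) adjustment over the 17143 genes that passed the filter on low counts. Values written with ± SE are log2 fold changes. Of the 91 genes, 90 passed the filter; Ndufa4l2 did not.

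Oxidative phosphorylation takes place in the inner mitochondrial membrane. Complex I and complex II pass electrons from NADH and succinate to ubiquinone, complex III passes them to cytochrome c, and complex IV hands them to oxygen; complexes I, III and IV pump protons, and complex V lets the protons flow back to make ATP. Complex II is made wholly of nuclear-encoded subunits, whereas the others also hold subunits encoded by mitochondrial DNA. Alveolar macrophages are known for a lipid-handling, mitochondria-dependent metabolism, and macrophages newly exposed to LPS for a shift toward glycolysis.

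Promoter sequences show what some of the genes share at their start sites. RefSeq promoters, which run from 250 bases before to 50 bases after the gene's start, were matched for 75 of the 91 genes and searched on both strands for 4 motifs of factors known to act on respiratory genes. The NRF1 core GCATGCGC was found in 13 (17.3%), against 3.05% of the promoters of all 27025 genes in the table and 3.94% of the 17492 protein-coding ones. The ETS motif CCGGAAG was found in 18 (24%), against 9.93% of all and 12.9% of protein-coding promoters. The YY1 motif AAGATGGCG was found in 8 (10.7%), against 1.64% and 2.14%. The estrogen-related receptor motif TCAAGGTCA was found in 2, Atp5g3 and Sdhd (2.67%), against 0.466% and 0.377%. At least 1 of the 4 was found in 33 (44%), against 14% of all and 17.9% of protein-coding promoters, and no motif is contained in another. A match is a match of letters only, not a shown binding site. The following 5 promoters, chosen after the values were seen, belong to genes whose levels by library are given below; capitals mark the matched letters, and in Atp5g2 and Atp5k the NRF1 core matches both strands at overlapping positions.
Cycs (GRCm38.p6 chr6:50566520-50566819, minus strand): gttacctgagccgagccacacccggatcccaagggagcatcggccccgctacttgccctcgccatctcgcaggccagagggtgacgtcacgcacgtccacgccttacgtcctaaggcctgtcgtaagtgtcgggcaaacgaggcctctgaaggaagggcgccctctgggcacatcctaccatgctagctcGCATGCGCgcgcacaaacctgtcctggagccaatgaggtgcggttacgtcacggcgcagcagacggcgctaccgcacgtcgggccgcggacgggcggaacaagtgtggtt
Atp5g2 (GRCm38.p6 chr15:102670998-102671297, minus strand): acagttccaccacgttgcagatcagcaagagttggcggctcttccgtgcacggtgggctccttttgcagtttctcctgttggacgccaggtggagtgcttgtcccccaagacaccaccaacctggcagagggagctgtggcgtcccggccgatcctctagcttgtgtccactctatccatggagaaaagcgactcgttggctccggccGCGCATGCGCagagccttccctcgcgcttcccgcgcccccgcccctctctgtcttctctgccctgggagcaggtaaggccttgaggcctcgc
Atp5g3 (GRCm38.p6 chr2:73911277-73911576, minus strand): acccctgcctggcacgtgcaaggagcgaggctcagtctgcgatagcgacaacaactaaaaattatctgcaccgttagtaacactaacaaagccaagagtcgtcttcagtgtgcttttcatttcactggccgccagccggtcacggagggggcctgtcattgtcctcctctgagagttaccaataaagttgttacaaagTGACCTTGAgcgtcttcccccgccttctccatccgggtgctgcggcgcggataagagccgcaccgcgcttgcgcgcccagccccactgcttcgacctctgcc
Atp5j2 (GRCm38.p6 chr5:145191492-145191791, minus strand): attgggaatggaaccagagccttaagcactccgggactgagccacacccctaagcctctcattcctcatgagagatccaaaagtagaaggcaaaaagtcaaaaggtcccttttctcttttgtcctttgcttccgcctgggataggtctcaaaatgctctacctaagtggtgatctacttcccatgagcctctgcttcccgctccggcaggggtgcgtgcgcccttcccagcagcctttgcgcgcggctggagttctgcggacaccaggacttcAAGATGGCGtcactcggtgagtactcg
Atp5k (GRCm38.p6 chr5:108434350-108434649, minus strand): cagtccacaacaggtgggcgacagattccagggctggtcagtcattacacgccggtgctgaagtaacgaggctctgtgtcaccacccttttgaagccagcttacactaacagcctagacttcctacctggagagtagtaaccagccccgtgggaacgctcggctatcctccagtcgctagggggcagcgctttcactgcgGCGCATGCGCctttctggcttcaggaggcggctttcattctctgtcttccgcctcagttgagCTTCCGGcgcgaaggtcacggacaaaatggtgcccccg
Cycs and Atp5g2 hold the NRF1 core, Atp5k the NRF1 core and an ETS motif, Atp5j2 a YY1 motif, and Atp5g3 the estrogen-related receptor motif on the opposite strand. The RefSeq start of Atp5g2 lies inside the longer gene span of the annotation used for counting (chromosome 15, 102662864 to 102672352).

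Library totals ran from 9176202 to 80816742 counts. One BM library of day 3 (replicate 1) had at least 10 counts in 7449 genes and correlated with its group at a median r of 0.734. For one BM library of day 1 (replicate 3) these values were 9055 and 0.830. Both stand apart, and counts that change without them are given below. Atp5k and Atp5j, for example, were at 0 in BM day 1 replicate 3 alone. The numbers that open the labels' library names differ between groups: 4645 for AM day 0, 6483 for BM day 1 and 5341 for all others, so that number and group cannot be told apart for the day 0 and BM day 1 libraries. Summed over 14 alveolar macrophage markers, AM libraries reached 23578 to 41316 CPM, BM libraries 1349.8 to 2137 at day 1, 2608 to 4868 at day 3 and 3957 to 19217 at day 7. Summed over 12 monocyte markers, BM libraries of day 1 reached 4039 to 5487 CPM and AM libraries 733 to 2701. Summed over 12 tissue macrophage markers (such as C1qa and Apoe), AM libraries reached 1632 to 1934 CPM at day 0, 2991 to 3719.6 at day 1, 4701 to 11954 at day 3 and 2562 to 3065 at day 7, and BM libraries 4431 to 5532, 12712 to 33394 and 15685 to 33783 at days 1, 3 and 7.

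The summed level of the set was lowest in BM at day 1 and highest in AM at day 1. The 3 AM libraries of day 0 summed to 6811, 6678 and 8749 CPM over the 91 genes, the 4 of day 1 to 11096, 13659, 9109.8 and 9989.8, the 3 of day 3 to 10527, 9492 and 9821 and the 4 of day 7 to 8319, 8787, 8649 and 8528. The 5 BM libraries of day 1 summed to 4826, 5412, 3627, 6034 and 4249 CPM, the 4 of day 3 to 7487, 8311, 7222 and 8175 and the 3 of day 7 to 7384, 7275 and 6345. Every BM library of day 1 lay below every other library. Relative to the mean of AM day 0 (7413 ± 1159 CPM, SD, n = 3), the group means were 148% in AM at day 1, 134% at day 3 and 116% at day 7, and 65.2%, 105% and 94.5% in BM at days 1, 3 and 7. In bulk RNA, fewer cells that express a gene and less of its RNA per cell cannot be told apart.

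Each complex had its lowest mean in BM at day 1. Complexes I, III, IV and V had their highest mean in AM at day 1, and complex II in AM at day 3. From day 3 to day 7 in BM, the mean of complex III went from 733 to 775 CPM, while those of complexes I, II, IV and V fell. By library, complex III summed to 470, 823, 786 and 853 CPM at day 3 and to 838, 828 and 660 at day 7. The value of 470 belongs to replicate 1 of day 3, a library that stands apart, so the rise of the complex III mean leans on it. Complex V gave the largest share of the sum, 35.1% to 40.3% by group, followed by complex I with 21.1% to 26%, complex IV with 16.1% to 19.0%, complex III with 9.37% to 12.3% and complex II with 5.69% to 7.55%. Complex I subunits averaged 1661, 2520, 2409 and 1973 CPM in AM at days 0, 1, 3 and 7, and 1018, 2018 and 1596 CPM in BM at days 1, 3 and 7. Relative to its mean at day 0, complex II changed least of the complexes in AM, from 538 CPM at day 0 to 657 at day 3 (122%). Cycs, a single gene set beside sums of several, rose most of these in AM, from 57.4 CPM at day 0 to 137 at day 1 (238%). It stood at 32 CPM in BM at day 1 (55.7%). Within complex V, the single gene Atp5k rose more than Cycs, from 34.8 to 96.2 CPM in AM over the same days.

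**Figure D1:**
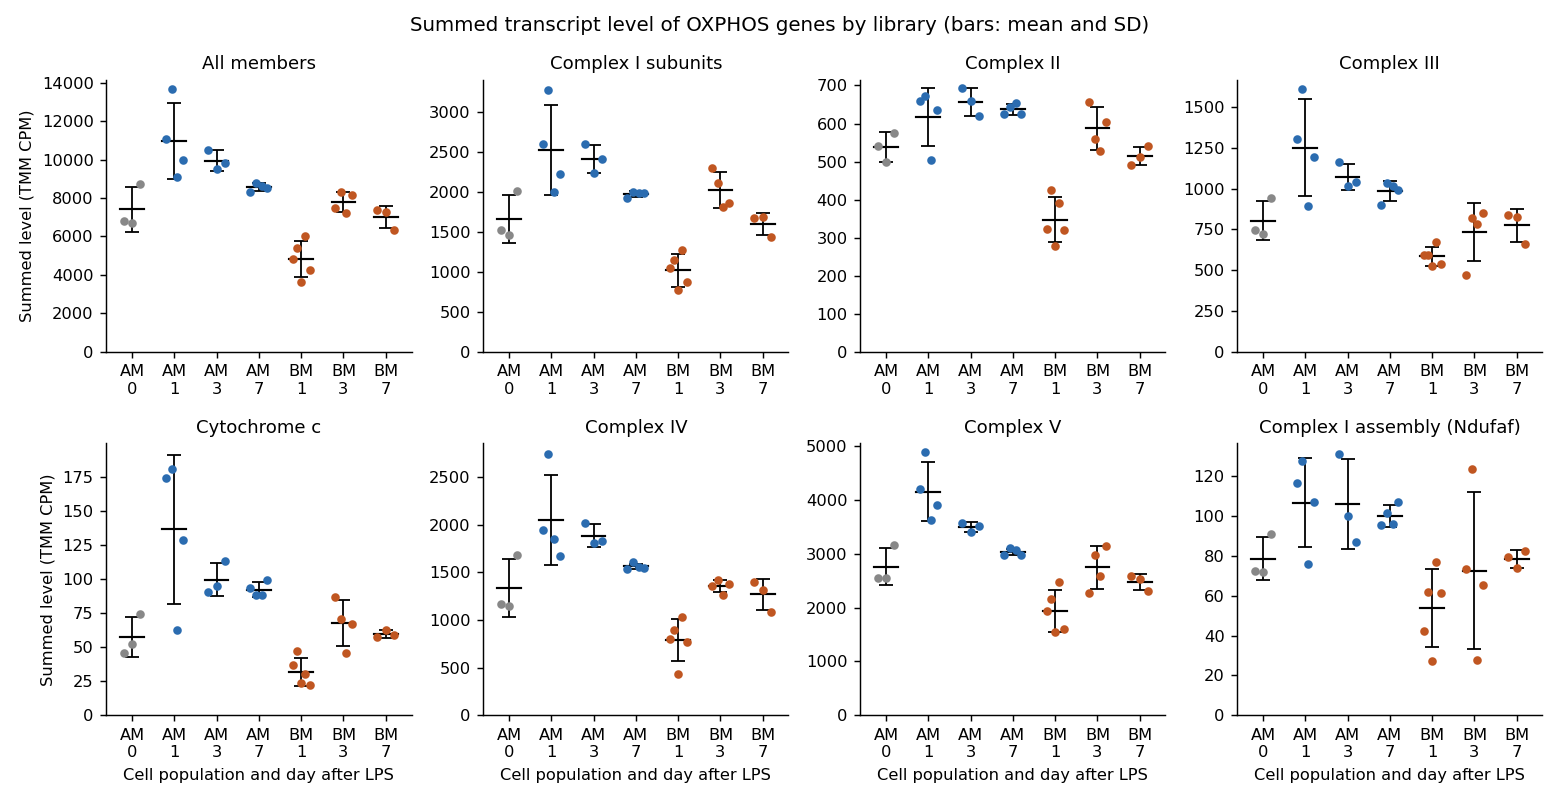
Summed CPM (y axis) of all 91 genes and of each complex in the 7 groups (x axis, population and day); each point is a library, and bars give the mean and SD. In the first panel the 5 BM libraries of day 1 lie between 3627 and 6034 CPM, below all others.

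Levels of different genes were compared per kilobase of exon, with all annotated exons of a gene joined. This length can exceed that of the principal transcript (for Ndufa4, 1381 against 610 bases), and ranks by the latter can differ. By joined exons, the highest of complexes IV and V were Cox4i1 (241 CPM per kilobase, mean of the 7 group means) and Atp5b (194). Those of complexes I, III and II were Ndufa2 (123), Uqcr10 (106) and Sdhd (90.7). Cytochrome c, a single soluble carrier, reached 22.9 CPM per kilobase and the most abundant assembly factor, Ndufaf8, 15.7. On this scale of joined exons, complex IV held 4 of the 6 highest genes, with Cox6b1 at 228, Cox8a at 226 and Cox6a1 at 181 CPM per kilobase beside Cox4i1. Ndufb2, an accessory subunit, was the lowest of the set at 0.730 CPM per kilobase.

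The transcripts moved together across libraries, within a complex as much as between complexes. As a description over the 26 libraries, which share their depth and scaling within each library, the median Pearson correlation of log2(CPM + 1) was 0.52 over the 912 pairs of genes of the same complex and 0.51 over the 3093 pairs from different complexes. Against the mean of the other genes, 74 of 90 correlated above 0.5, with a median of 0.72. Cox8a and Uqcrh reached 0.92, and Ndufb2 went the other way with -0.20.

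**Figure D2:**
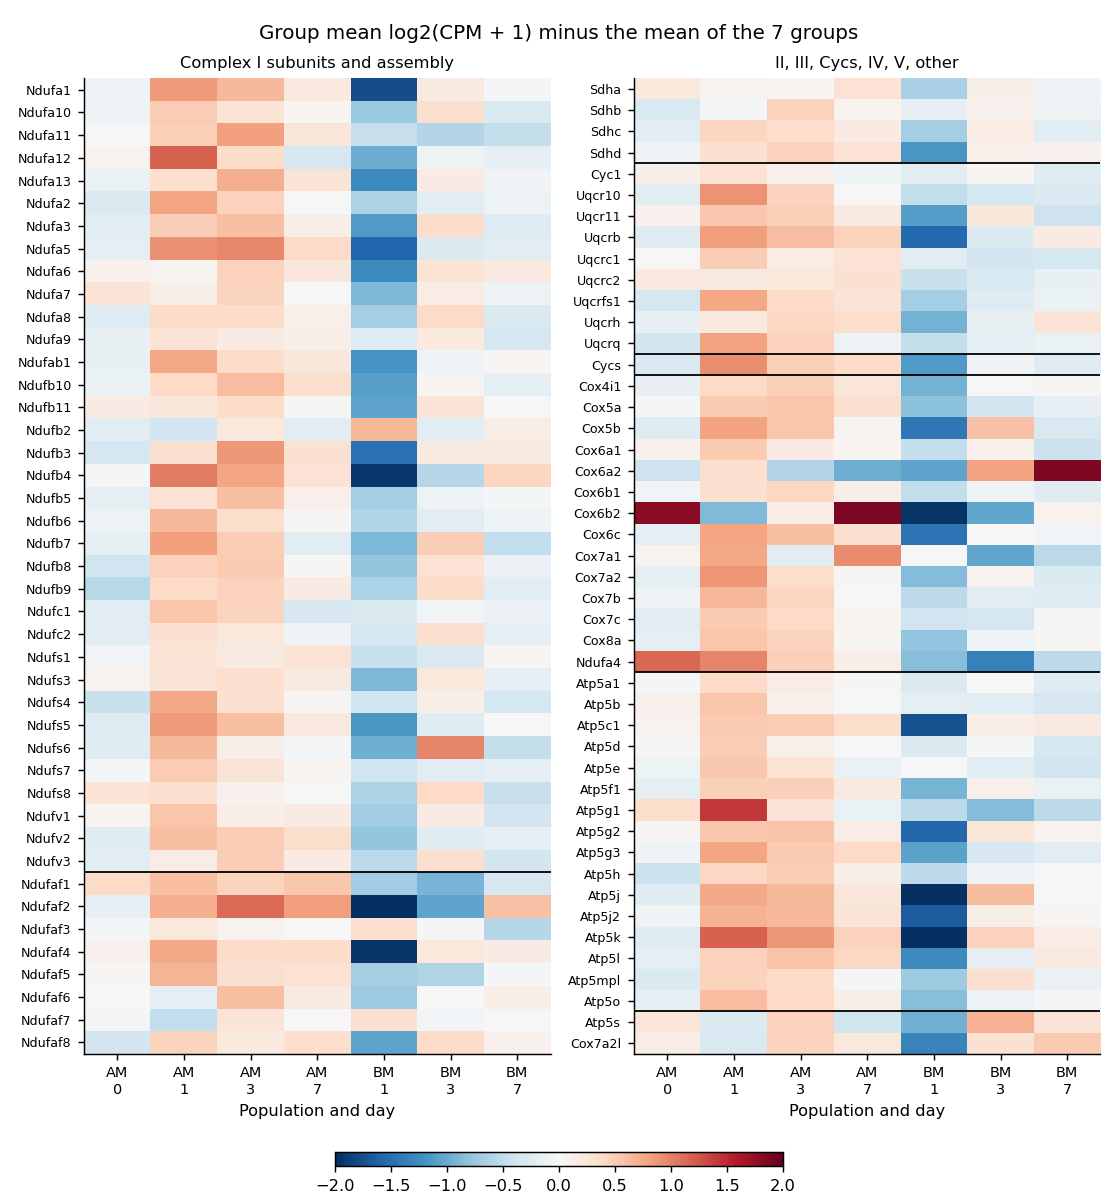
Each row is a gene (89 of the 91 are drawn), each column a group, and color the group mean of log2(CPM + 1) minus the mean of the 7 group means, from -2 to 2; black lines separate complexes. Over all 91 genes, BM at day 1 has the lowest mean in 73 and AM at day 1 the highest in 47.

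The first comparison sets BM-derived macrophages against resident AM at the same day after LPS; the labels tie no BM library to the lung or animal of an AM library. At day 1, 58 of the 90 genes were called lower in BM and 0 higher, where 13.8% of all genes tested were called lower and 15.2% higher. The median log2 fold change was -1.34 for the set and 0.06 for all genes, and 87 of 90 lay below 0. In 55 genes all 5 BM libraries lay below all 4 AM libraries, a pattern that 12.6% of all genes showed. Fitted alone, these 2 groups gave 41 that were called lower, where 9.97% of all genes were. Of the genes named below as called, Sdha, Ndufs8, Ndufa1, Ndufb4, Ndufaf2, Ndufaf4, Cox6a1, Cox6b1 and Atp5j were not called in that fit. Ndufs3 was called lower there. Without the 2 libraries that stand apart, 75 were called lower. AM and BM libraries of day 1 carry different library name numbers, so that population and number cannot be told apart at that day.

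All complexes took part in the day 1 difference. In complex I, 23 of 36 subunits were called lower: 5 of the 7 core subunits (median -1.20) and 18 of the 29 accessory subunits (median -1.33). Ndufv1, which carries the NADH-binding flavin, measured 129, 139.7, 185 and 136 CPM in AM and 64.4, 73.9, 17.6, 85 and 65.9 in BM. The groups did not overlap, with a log2 fold change of -1.26 ± 0.28 SE (edgeR, BH-adjusted p = 0.0012). Other called core subunits, which carry iron-sulfur clusters, included Ndufv2 (-1.39 ± 0.26), Ndufs8 (-0.98 ± 0.31) and Ndufs7 (-0.93 ± 0.25). Ndufs1 (-0.72 ± 0.66, adjusted p = 0.454) and Ndufs3 (-1.20 ± 0.59, adjusted p = 0.123) did not pass the edgeR test in the fit of all groups. The call of Ndufs8 was lost without AM day 1 replicate 2 or BM day 1 replicate 1 (edgeR, BH-adjusted p up to 0.11).

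Among accessory subunits of complex I, the largest called differences with at least 5 CPM in the higher group were those of Ndufb4, Ndufa1 and Ndufa5. Ndufb4, a membrane arm subunit, measured 48.4, 40.6, 62.6 and 23.5 CPM in AM and 0, 12.5, 0, 4.88 and 6.4 in BM, a log2 fold change of -3.20 ± 1.07 SE (edgeR, BH-adjusted p = 0.0282). Ndufa1, a small X-linked membrane subunit needed for assembly, measured 55.8, 112, 66.8 and 52.3 CPM in AM and 14.3, 18.8, 0, 19.1 and 1.4 in BM, a log2 fold change of -2.74 ± 0.72 SE (edgeR, BH-adjusted p = 0.00649). In both genes every BM library lay below every AM library, though the BM counts were few and included zeros. Ndufa5 differed by -2.73 ± 0.85 SE (edgeR, BH-adjusted p = 0.0187), and Ndufa2, the most abundant per kilobase, by -1.43 ± 0.34 SE (edgeR, BH-adjusted p = 0.00257). Of the 8 assembly factors, Ndufaf2 (-3.66 ± 1.26) and Ndufaf4 (-3.09 ± 0.96) were called lower (adjusted p = 0.0312 and 0.0186, same test). The call of Ndufb4 was lost without AM day 1 replicate 1 or 3 or BM day 1 replicate 4 (adjusted p up to 0.0573). That of Ndufaf2 was lost without AM day 1 replicate 1 or 3 or BM day 1 replicate 1, 2 or 4 (adjusted p up to 0.0643), and its value was -6.70 without BM day 1 replicate 5, the BM library with the most of it.

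In complex II, which is also the succinate dehydrogenase of the citric acid cycle, 3 of 4 subunits were called lower. Sdha, the flavoprotein that oxidizes succinate, measured 256, 208, 208 and 294 CPM in AM at day 1 and 144, 185, 83.8, 191 and 131 in BM. The groups did not overlap, and the log2 fold change was -0.72 ± 0.18 SE (edgeR, BH-adjusted p = 0.00353). The membrane anchors Sdhc and Sdhd differed more, by -1.13 ± 0.21 and -1.49 ± 0.22 (adjusted p = 0.000156 and 8.66e-06, edgeR). Sdhb, the iron-sulfur subunit between them, measured 116, 110.0, 67 and 84.1 CPM in AM and 68.2, 93.7, 78.4, 96.8 and 88.4 in BM. These ranges overlapped, and its log2 fold change of -0.15 ± 0.22 SE (edgeR, BH-adjusted p = 0.659) was not called.

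In complex III, 6 of 9 subunits were called lower, and so was cytochrome c. Uqcrb, a subunit near the ubiquinone site, measured 74.8, 184, 74.7 and 106 CPM in AM and 10.7, 33.6, 23.6, 20.7 and 12.3 in BM, with no overlap and a log2 fold change of -2.44 ± 0.36 SE (edgeR, BH-adjusted p = 8.04e-06). Uqcrfs1, the Rieske iron-sulfur protein, differed by -1.46 ± 0.21 and Uqcr11 by -1.69 ± 0.34 (adjusted p = 5.54e-06 and 0.000464, edgeR). Cyc1, the cytochrome c1 heme protein, measured 134, 137, 63.8 and 109 CPM in AM and 75, 70.3, 133, 66.3 and 41.8 in BM, overlapped and was not called (-0.52 ± 0.25, adjusted p = 0.121). Cycs measured 174, 181, 62.6 and 129 CPM in AM and 36.8, 46.9, 23.5, 30.2 and 22.5 in BM. The highest BM library lay below the lowest AM library, and the log2 fold change was -2.09 ± 0.27 SE (edgeR, BH-adjusted p = 1.15e-06).

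In complex IV, 10 of 14 subunits were called lower. Cox4i1, the ubiquitous form of subunit 4, measured 438, 549, 501 and 396 CPM in AM and 177, 174, 147, 234 and 195 in BM, a log2 fold change of -1.35 ± 0.14 SE (edgeR, BH-adjusted p = 4.47e-08). The groups did not overlap. Larger differences were called for Cox6c (-2.29 ± 0.22), Cox5b (-2.27 ± 0.30) and Cox7a2 (-1.78 ± 0.30), with adjusted p = 1.5e-08, 1.48e-06 and 5.44e-05 in the same test. Cox8a (-1.35 ± 0.34), Cox6a1 (-1.01 ± 0.38) and Cox6b1 (-0.82 ± 0.25), the widely expressed forms of their subunits, were also called (adjusted p = 0.00401, 0.0455 and 0.017). The call of Cox6b1 was lost without AM day 1 replicate 2 or BM day 1 replicate 5 (adjusted p up to 0.104), and that of Cox6a1 in 14 of 26 fits that each left out 1 library (adjusted p up to 0.191). Cox6a2, Cox6b2, Cox7a1 and Ndufa4 were not called. Cox7a2l, a supercomplex assembly factor that joins complexes III and IV, measured 112, 176, 114 and 121 CPM in AM and 52.2, 88.9, 28.7, 80 and 65.1 in BM and was called lower, at -1.05 ± 0.23 SE (edgeR, BH-adjusted p = 0.00118).

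In complex V, 12 of 16 subunits were called lower, 4 of the 5 in the catalytic F1 head (median -0.73) and 8 of the 11 in the membrane part Fo and the stalk (median -1.86). The F1 subunits Atp5a1 and Atp5b, the alpha and beta subunits that form ATP, differed by -0.67 ± 0.11 and -0.73 ± 0.14 (adjusted p = 6.61e-05 and 0.00033, edgeR). Atp5a1 measured 763, 774, 744 and 789.9 CPM in AM and 388, 479.6, 507, 607 and 438 in BM. Atp5c1, the rotating gamma subunit, differed more, by -2.28 ± 0.34 SE (edgeR, BH-adjusted p = 9.72e-06), and was at 6.99 CPM in the BM library that stands apart and at 31 to 74.2 CPM in the other 4.

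The largest called difference of the whole set was that of Atp5k, the e subunit of Fo, which helps complex V to form dimers. Atp5k (chromosome 5, 108433244 to 108434448, minus strand, GRCm38) measured 99.3, 154, 56.4 and 74.9 CPM in AM and 8.63, 5.44, 0, 2.89 and 7.06 in BM, with no overlap. Its log2 fold change was -4.32 ± 0.62 SE (edgeR, BH-adjusted p = 7.43e-06). Atp5j, the coupling factor 6 subunit, differed by -2.80 ± 0.64 SE (edgeR, BH-adjusted p = 0.00244). Atp5j2, the f subunit, measured 179, 264, 122 and 139 CPM in AM and 22.9, 36.8, 37.2, 47.3 and 22.8 in BM, with no overlap and a log2 fold change of -2.40 ± 0.26 SE (edgeR, BH-adjusted p = 9.15e-08). Among the 3 genes that encode the same c-ring protein, Atp5g2 measured 138, 134, 104 and 123 CPM in AM and 31.5, 36.6, 26.2, 21.7 and 23.6 in BM, a log2 fold change of -2.16 ± 0.18 SE (edgeR, BH-adjusted p = 1.38e-09) and the smallest p of the set. Atp5g3 differed by -1.86 ± 0.19 SE (edgeR, BH-adjusted p = 2.52e-08), and Atp5g1 did not pass the test (-1.98 ± 0.97, adjusted p = 0.128).

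**Figure D3:**
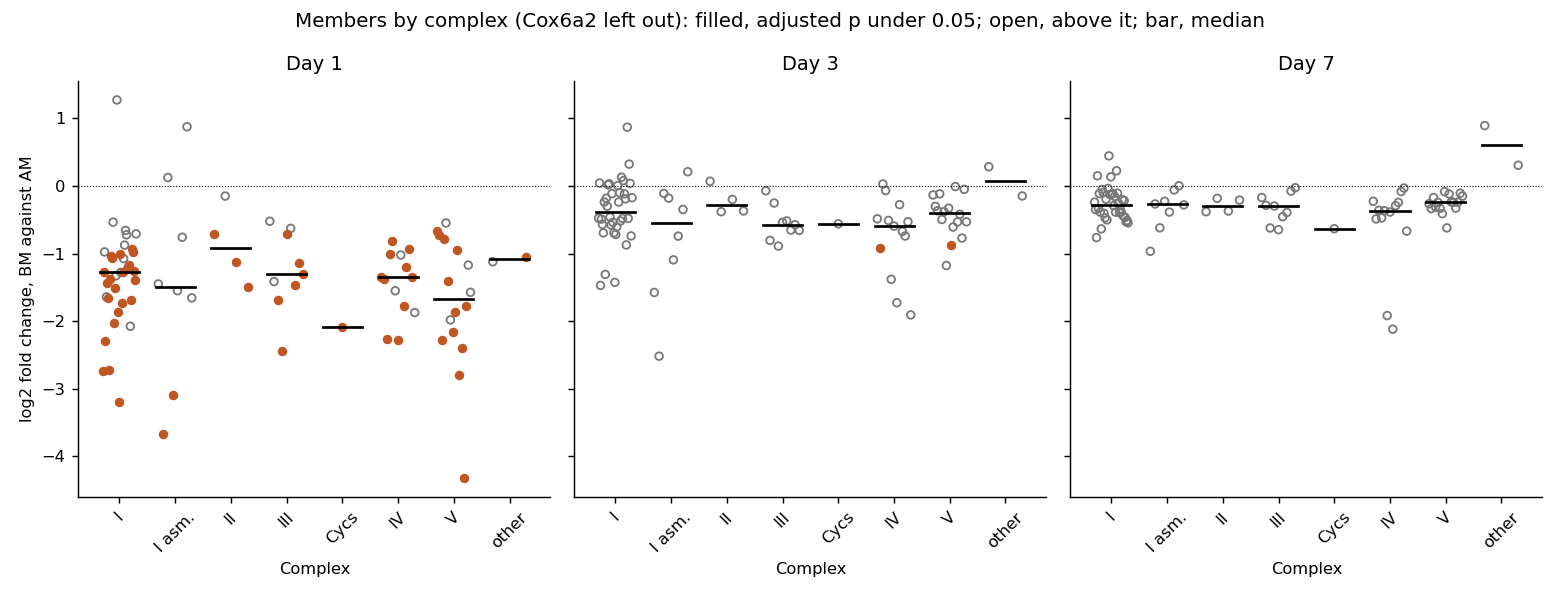
Log2 fold change of BM against AM (y axis) for each gene by complex (x axis) at days 1, 3 and 7; filled points are called, open points are not, bars are medians, and Cox6a2 is left out because its levels are near 0. At day 1, 58 points are filled, at day 3 only Cox5a and Atp5g3, and at day 7 no point, while most points stay below 0 at all 3 days.

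Other abundant short transcripts moved with the set at day 1. Of 83 cytosolic ribosomal protein genes (Rpl and Rps), 76 were called lower in BM at day 1 (median -1.32), with sums of 15124 to 26616 CPM in BM and 42182 to 67734 in AM. Of 77 mitochondrial ribosomal protein genes, 19 were called lower (median -1.31). Of 52 histone genes, most of whose transcripts end without a poly(A) tail, 38 were called higher, with sums of 681 to 1969.6 CPM in BM and 54.4 to 88 in AM, in libraries described as poly(A) selected. The 14 neutrophil markers summed to 677 to 1829 CPM in BM and 1050.5 to 2044 in AM, with 3 of 12 tested called higher and 1 lower. Transcripts of 4 Y-linked genes summed to 7.75 to 38.4 CPM in BM and 191 to 217 in AM. With that level as a covariate 50 genes of the set were called lower. These ranges do not overlap, so that fit cannot tell the Y-linked level from the population. Of 12 tissue macrophage markers, 5 were called higher in BM and 3 lower. The part of these genes in the result was not tested.

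Transcript length also moved with the day 1 difference. The principal transcripts of the 91 genes have a median of 908 bases, against 2921 for the 13181 protein-coding genes tested. Between 500 and 1000 bases, the median log2 fold change of BM against AM was -1.55 over 43 genes of the set and -1.07 over all 753 protein-coding genes of that length. Between 1000 and 2000 bases the medians were -1.12 (31 genes) and -0.60 (2898), and between 2000 and 4000 bases -1.20 (8) and -0.08 (5384). Under 500 bases they were -1.55 (6) and -0.67 (104), so the shortest genes did not continue the trend over all genes. At 4000 bases or more they were -0.35 (2) and 0.58 (4042). As a description across genes, which are not independent, Spearman's rho of length and fold change was 0.27 within the set and 0.29 over all protein-coding genes. The part of length in the result was not tested beyond these values.

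**Figure D4:**
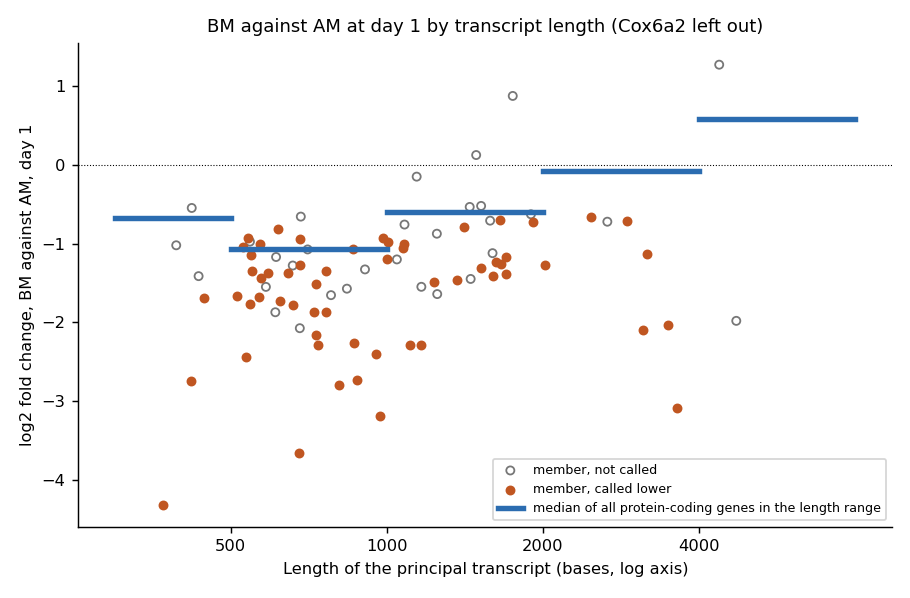
Log2 fold change of BM against AM at day 1 (y axis) against the length of the gene's principal transcript in bases (x axis, log scale) for the genes of the set; blue bars are medians of all protein-coding genes in 5 length ranges, and Cox6a2 is left out. Between 500 and 1000 bases the median of the set is -1.55, and the bar stands at -1.07.

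The course within BM-derived macrophages ran upward from day 1 to day 3. Of the 90 genes, 34 were called higher at day 3 than at day 1 and 0 lower, where 10.6% of all genes were called higher and 15.2% lower. The median log2 fold change was 0.95 for the set and -0.05 for all genes. By complex, 15 of 36 complex I subunits rose, 3 of 4 of complex II, 3 of 9 of complex III, 4 of 14 of complex IV and 7 of 16 of complex V, together with Cycs and Cox7a2l. In 23 genes the groups did not overlap in the upward direction, a pattern that 5.5% of all genes showed, and 0 did so downward, against 6.75%. With only these 2 groups in the fit, 9 were called higher, where 2.67% of all genes were. The 9 were Atp5g2, Atp5j2, Atp5f1, Atp5c1, Cox6c, Cox5b, Cox4i1, Cox7a2l and Sdhd. Other rising genes of the set named below were not called there: Atp5k, Atp5j, Sdha, Sdhc, Cycs, Cox7a2, Ndufs8, Ndufv1, Ndufa1, Ndufs6 and Ndufa6. Over the same interval 66 of 83 Rpl and Rps genes rose and 38 of 52 histone genes fell. Tissue macrophage markers summed to 4431 to 5532 CPM at day 1 and 12712 to 33394 at day 3, with 10 of 12 called higher. The Y-linked sum was 7.75 to 38.4 CPM at day 1, whereas the 4 libraries of day 3 gave 0.165, 0.0479, 167 and 169. Of all 753 protein-coding genes of 500 to 1000 bases, 203 were called higher, with a median of 0.72, against 19 of 43 and 1.08 in the set; Spearman's rho of length and fold change across genes was -0.21 in both the set and all protein-coding genes. The part of these genes and of length in the result was not tested.

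In the fit of all groups, the largest of these rises were those of Atp5k and Atp5j, both of complex V. Neither was called in the fit of the 2 groups alone (edgeR, BH-adjusted p = 0.063 and 0.111). Atp5k measured 8.63, 5.44, 0, 2.89 and 7.06 CPM in BM at day 1 and 38.5, 88.6, 45.4 and 59.1 at day 3, with no overlap and a log2 fold change of 3.59 ± 0.60 SE (edgeR, BH-adjusted p = 0.000118). Atp5g2 measured 31.5, 36.6, 26.2, 21.7 and 23.6 and then 104, 90.5, 90.6 and 117 CPM, a log2 fold change of 1.85 ± 0.18 SE (edgeR, BH-adjusted p = 4.27e-08). Atp5j (2.68 ± 0.64), Atp5c1 (1.89 ± 0.33) and Atp5j2 (1.81 ± 0.26) rose as well, with adjusted p = 0.00514, 0.000197 and 1.27e-05 by edgeR. Atp5b, at -0.04 ± 0.14, did not (adjusted p = 0.917).

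In the electron transport chain, the largest rises of complex IV were in Cox5b (2.04 ± 0.29), Cox6c (1.51 ± 0.22) and Cox7a2 (0.96 ± 0.30), with adjusted p = 1.4e-05, 1.64e-05 and 0.0216 by edgeR. Cox4i1 rose from 177, 174, 147, 234 and 195 to 361, 335, 358 and 369 CPM without overlap, a log2 fold change of 0.94 ± 0.14 SE (edgeR, BH-adjusted p = 2.26e-05). Cox7a2l, the supercomplex factor, rose from 52.2, 88.9, 28.7, 80 and 65.1 to 207, 224, 159 and 206 CPM, a log2 fold change of 1.66 ± 0.23 SE (edgeR, BH-adjusted p = 1.07e-05), and its day 3 libraries all lay above its day 1 libraries. Sdhd rose by 1.28 ± 0.22, Sdhc by 0.84 ± 0.21 and Sdha by 0.76 ± 0.18 (adjusted p = 0.00013, 0.00517 and 0.00324), while Sdhb was not called (0.26 ± 0.22). Cycs rose by 1.08 ± 0.26 SE (edgeR, BH-adjusted p = 0.00499), though its groups overlapped. The call of Cox7a2 was lost without BM day 1 replicate 5 or BM day 3 replicate 3, where its log2 fold change was as low as 0.57 and its adjusted p as high as 0.151.

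In complex I, the core subunits Ndufs8 (1.05 ± 0.31) and Ndufv1 (0.88 ± 0.28) rose (edgeR, BH-adjusted p = 0.0164 and 0.0241). The largest accessory rises without overlap were those of Ndufa1 (2.05 ± 0.71), Ndufs6 (2.00 ± 0.44) and Ndufa6 (1.60 ± 0.33), with adjusted p = 0.0374, 0.00191 and 0.000976 by edgeR. Ndufs6, a zinc-binding subunit of the peripheral arm, measured 209, 40.8, 36.9 and 37.9 CPM at day 3, and its log2 fold change was 0.95 without the first of these, the library that stands apart (edgeR, BH-adjusted p = 0.0326). The calls of Ndufv1 (without BM day 3 replicate 1), Ndufs8 (without BM day 3 replicate 3) and Ndufa1 (without BM day 1 replicate 1 or 5 or BM day 3 replicate 1 or 2) were lost when a single library was left out, with adjusted p up to 0.0869, 0.0898 and 0.0971. From day 3 to day 7, 0 genes were called in BM by edgeR, 5 had an unadjusted p under 0.05 and DESeq2 called 4 lower. Of all 17143 genes, DESeq2 called 453 lower. The median of the set was -0.08 against 0.21 for all genes, of which edgeR called 3.09% higher and 0.898% lower. In the set 6 lay lower without overlap, against 3.5% of all genes.

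Fewer genes differed between the populations at the later days. At day 3, 2 genes were called lower in BM and 0 higher, where 2.99% and 0.997% of all genes were, with a median of -0.48 for the set and -0.07 for all genes. Cox5a, a matrix-side subunit of complex IV, measured 128, 105 and 123 CPM in AM and 53.1, 68.4, 40.9 and 87.7 in BM, a log2 fold change of -0.92 ± 0.24 SE (edgeR, BH-adjusted p = 0.0258). Atp5g3 measured 309, 278 and 262 CPM in AM and 132, 172, 131 and 183 in BM, a log2 fold change of -0.87 ± 0.21 SE (edgeR, BH-adjusted p = 0.0182). Both were without overlap, as were 21 genes in all that lay lower in BM, a pattern that 11.3% of all genes showed; 0 lay higher without overlap, against 3.63% of all genes. The count rests on single libraries: without AM day 3 replicate 1 or 3, or without BM day 3 replicate 3, 0 were called, and without BM day 3 replicate 1, 4 were. In a fit of these 2 groups alone 0 were called, where 0.0394% of all genes were called lower and 0.00787% higher.

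At day 7, 0 of 90 genes were called by edgeR in the fit of all groups, where 0.286% of all genes were called lower and 1.48% higher; 4 had an unadjusted p under 0.05 and DESeq2 called 0. The differences lay mostly on one side, with 82 of 90 below 0 and a median of -0.28 against 0.03 for all genes. In 42 genes all BM libraries lay below all AM libraries, a pattern that 14.2% of all genes showed. With only these 2 groups in the fit, 28 were called lower, where 9.22% of all genes were. Cycs measured 93.2, 88.2, 88.5 and 99.3 CPM in AM and 57.2, 62.8 and 58.6 in BM, and its log2 fold change in that fit was -0.64 ± 0.09 SE (edgeR, BH-adjusted p = 0.000615), against -0.63 ± 0.31 (adjusted p = 0.612) in the fit of all groups. The complex III core proteins Uqcrc1 and Uqcrc2 differed by -0.65 ± 0.10 SE (edgeR, BH-adjusted p = 0.00107) and -0.46 ± 0.08 SE (edgeR, BH-adjusted p = 0.00253) in the 2-group fit, and the complex I core subunits Ndufv1 and Ndufv2 by -0.53 ± 0.10 SE (edgeR, BH-adjusted p = 0.00339) and -0.51 ± 0.10 SE (edgeR, BH-adjusted p = 0.00533). Of the tissue macrophage markers, 6 of 12 were called higher in BM at day 3 and 8 of 12 at day 7, and 0 lower; Y-linked sums at day 3 were 194 to 227 CPM in AM and 0.0479 to 169 in BM. Their part in these differences was not tested.

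The change of the difference itself was tested with an interaction term. From day 1 to day 7, the BM against AM difference moved up in 17 of 90 genes and down in 0, where 4.61% of all genes moved up and 2.93% down. The median was 1.07 for the set and 0.01 for all genes. Among the 17, the differences of Cox7a2l and Cox6a2 changed sign, with Cox7a2l at a mean of 233 CPM in BM and 188 in AM at day 7. The 17 held 0 of 36 complex I subunits, 1 of 4 of complex II (Sdhd), 3 of 9 of complex III, 5 of 14 of complex IV, 6 of 16 of complex V, Cycs and Cox7a2l. Atp5g2 had the smallest p, with a change of 2.07 ± 0.27 SE (edgeR, BH-adjusted p = 9.59e-06), and Atp5k the largest after Cox6a2, whose levels are near 0: 3.99 ± 0.86 SE (edgeR, BH-adjusted p = 0.00353). In complex I, 12 of 36 had an unadjusted p under 0.05 by edgeR, as did 3687 of all 17143 genes. DESeq2 called 2 of the 36, beside 1117 up and 1185 down of all 17143 genes. The edgeR count of 0 does not by itself show that the complex I difference stayed. Without BM day 3 replicate 1 the count was 26, without BM day 7 replicate 1 or 2 it was 11 or 10, and without both libraries that stand apart 38. From day 3 to day 7, edgeR called 0, 0 had an unadjusted p under 0.05 and DESeq2 called 0, where 0.338% of all genes moved up and 0.0233% down. Beside the change from day 1 to day 7, 5 of 12 tissue macrophage markers also moved up, and Spearman's rho of length and change across genes was -0.23 in the set and -0.27 over all protein-coding genes; their part was not tested.

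The second comparison follows resident AM after LPS. One day after LPS, 8 of 90 genes were called higher than in untreated AM and 0 lower, where 3.22% of all genes were called higher and 3.06% lower. The median was 0.65 for the set and -0.20 for all genes, and in 33 genes all day 1 libraries lay above all day 0 libraries, a pattern that 9.36% of all genes showed. The 8 were Cycs, Ndufs4 of complex I, Uqcrfs1 and Uqcrq of complex III, Cox4i1 and Cox6c of complex IV, and Atp5g3 and Atp5h of complex V. In a fit of these 2 groups alone 20 were called higher, where 7.1% of all genes were, and Cox6b2 was called lower. DESeq2 called 21 higher, where it called 906 of all 17143 genes higher. The count was 1, Uqcrfs1, without AM day 0 replicate 1 or 2, 3 without AM day 1 replicate 1, 2 without AM day 1 replicate 2, 14 without BM day 3 replicate 1 and 33 without both libraries that stand apart. AM of day 0 and of later days carry different library name numbers, so that treatment and number cannot be told apart.

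Cycs measured 45.8, 52.2 and 74.2 CPM in untreated AM and 174, 181, 62.6 and 129 at day 1. Of the day 1 libraries, 3 lay above all of day 0 and 1 within its range, and the log2 fold change was 1.25 ± 0.31 SE (edgeR, BH-adjusted p = 0.0119). Uqcrfs1 rose from 89.7, 88.8 and 104 to 236, 219, 150.5 and 224 CPM without overlap, a log2 fold change of 1.14 ± 0.24 SE (edgeR, BH-adjusted p = 0.0031). Uqcrq, a small complex III subunit, rose from 61.4, 56.1 and 83.5 to 181, 213, 119 and 95.9 CPM, also without overlap, by 1.18 ± 0.28 SE (edgeR, BH-adjusted p = 0.00697). Ndufs4, an accessory subunit whose loss in mice causes a Leigh-like disease, rose from 32.5, 31.6 and 44.3 to 101, 109, 71.4 and 56.1 CPM without overlap, by 1.22 ± 0.35 SE (edgeR, BH-adjusted p = 0.0332).

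Atp5g3 rose from 167, 166 and 219 to 330.0, 418, 291 and 312 CPM, by 0.87 ± 0.22 SE (edgeR, BH-adjusted p = 0.0112), and Cox4i1 from 275, 290.5 and 390.1 to 438, 549, 501 and 396 CPM, by 0.57 ± 0.16 SE (edgeR, BH-adjusted p = 0.0325). Both were without overlap. Cox6c rose by 0.98 ± 0.26 and Atp5h, a stalk subunit of complex V, by 0.84 ± 0.24 (adjusted p = 0.017 and 0.0333, edgeR). Complex II gave no call at day 1 (0 of 4 by edgeR and by DESeq2; 1 had an unadjusted p under 0.05, and Sdha was at -0.14 ± 0.20). Beside these rises, 15 of 83 Rpl and Rps genes rose (median 0.50), shorter transcripts had higher fold changes (Spearman's rho -0.24 in the set and -0.18 over all protein-coding genes), and the 14 neutrophil markers summed to 75.7 to 94.4 CPM at day 0 and to 1050.5 to 2044 at day 1, with 4 of 12 tested called higher. The 4 were S100a8 (4.87 ± 0.78), S100a9 (7.30 ± 1.67), Lcn2 (10.65 ± 1.02), which stimulated macrophages also express, and Mmp9 (5.22 ± 1.46), with adjusted p = 0.000262, 0.00854, 3.99e-07 and 0.0329 by edgeR. At day 1 S100a8 measured 139, 188, 67.4 and 36.3 CPM and Lcn2 588, 702, 1813 and 945. Of 12 tissue macrophage markers, 7 were called higher and 1 lower. The part of these genes in the result was not tested.

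At day 3, 2 genes were called higher than at day 0, where 1.78% of all genes were: Cox4i1 (0.65 ± 0.17 SE; edgeR, BH-adjusted p = 0.0364) and Atp5h (0.95 ± 0.26 SE; edgeR, BH-adjusted p = 0.0412). The median was 0.56 against -0.07 for all genes, all 29 accessory subunits of complex I lay above 0, and in 50 genes the groups did not overlap in the upward direction, a pattern that 14% of all genes showed, and 2 did so in the downward direction, against 19.7%. The count was 4 without BM day 3 replicate 1, and 1 without AM day 0 replicate 3, AM day 7 replicate 2 or BM day 3 replicate 3. It was 0 without AM day 0 replicate 1 or 2, AM day 1 replicate 1, any AM day 3 library, AM day 7 replicate 1, 3 or 4, BM day 1 replicate 1, 2 or 5, or BM day 7 replicate 1 or 2. In a fit of these 2 groups alone 34 were called higher, where 7.17% of all genes were, among them Ndufb3 (1.23 ± 0.22 SE; edgeR, BH-adjusted p = 0.00597), Sdhb (0.78 ± 0.17 SE; edgeR, BH-adjusted p = 0.0131) and Uqcrb (0.88 ± 0.17 SE; edgeR, BH-adjusted p = 0.00888), which were chosen after their values were seen. Other genes moved over the same interval. The neutrophil markers summed to 75.7 to 94.4 CPM at day 0 and 596 to 1179 at day 3, with 2 of 12 tested called higher, and the tissue macrophage markers to 1632 to 1934 and 4701 to 11954, with 7 of 12 called higher. Sums of 9 lung epithelium markers were 250.1 to 372 CPM at day 0 and 60.7 to 122 at day 3, and those of 5 B cell markers 154 to 189 and 13.3 to 40.5; of these 2 lists edgeR and DESeq2 called no gene, and 2 and 1 genes had an unadjusted p under 0.05. Shorter transcripts had higher fold changes, with Spearman's rho across genes of -0.27 in the set and -0.20 over all protein-coding genes. The part of these genes and of length was not tested.

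By day 7 the level had moved back toward that of untreated AM. Against day 0, 0 genes were called by edgeR, where 0.408% of all genes were called higher; 5 had an unadjusted p under 0.05, DESeq2 called 0 and the median was 0.28 against -0.04. In a fit of these 2 groups alone 23 were called higher, where 7.79% of all genes were, and 1, Ndufa4, lower. Against day 3, 0 were called by edgeR, where 1.35% of all genes were called lower; 2 had an unadjusted p under 0.05 and DESeq2 called 0. Yet 80 of 90 lay below 0, including all 29 accessory subunits of complex I, with a median of -0.29 against 0.01, and in 37 genes all day 7 libraries lay below all day 3 libraries, a pattern that 10.6% of all genes showed. Fitted alone, they gave 26 that were called lower, where 8.11% of all genes were. From day 1 to day 3, edgeR called 0, where 0.624% of all genes were called higher and 0.21% lower, and 2 had an unadjusted p under 0.05. DESeq2 called 1 lower, where it called 318 of all 17143 genes lower. In the set 4 genes lay higher and 5 lower without overlap, against 8.2% and 4.84% of all genes. Transcripts of 4 Y-linked genes summed to 146 to 227 CPM in AM at days 0, 1 and 3 and to at most 4.09 CPM in AM at day 7, so that level and day cannot be told apart in AM. With that level as a covariate the calls against day 0 and day 3 stayed at 0, which does not separate level and day. From day 3 to day 7 in AM, 6 of 12 tissue macrophage markers and 2 of 12 neutrophil markers were called lower; their part was not tested.

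Complex IV holds subunits with paralogs, and several followed their own course. Ndufa4, formerly placed in complex I, is the last subunit of complex IV, and AA467197 (Nmes1), an LPS-inducible paralog on chromosome 2 (122636986 to 122641191, plus strand), is known to take its place. Ndufa4 measured 70.8, 72.9 and 95.8 CPM in AM at day 0, 75.6, 76.7, 51.8 and 79.7 at day 1, 35, 45.6 and 69.7 at day 3 and 50.5, 27.4, 40.1 and 38.2 at day 7. AA467197 measured 3.1, 2.36 and 6.27 CPM at day 0, 685, 832, 268 and 310.4 at day 1, 260.2, 211 and 192 at day 3 and 67.1, 80.8, 68.3 and 69.5 at day 7. Against day 0, AA467197 was called higher at day 1 by 7.07 ± 0.81 SE (edgeR, BH-adjusted p = 3.98e-06), at day 3 by 5.83 ± 0.78 and at day 7 by 4.20 ± 0.70. Ndufa4 was not called at any of these days in the fit of all groups, and in the fit of days 0 and 7 alone its log2 fold change was -1.02 ± 0.19 SE (edgeR, BH-adjusted p = 0.00407), where 9.1% of all genes were called lower.

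Per kilobase of joined exons, Ndufa4 stood at 57.8 CPM in untreated AM and AA467197 at 3.25. At day 1 the order had turned, with 435 for AA467197 and 51.4 for Ndufa4, and it was still so at day 7 with 59.4 and 28.3. In BM, AA467197 stood at 40.3, 192 and 58.9 CPM per kilobase at days 1, 3 and 7, and Ndufa4 at 14, 9.64 and 17.8. AA467197 was called lower in BM than in AM at day 1, at -3.43 ± 0.55 SE (edgeR, BH-adjusted p = 5.45e-05), and at day 7 the difference was -0.01 ± 0.59. Ndufa4 was not called between the populations at any day (-1.87 ± 0.89 at day 1, adjusted p = 0.114), although all BM libraries lay below all AM libraries at days 1 and 3.

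Cox6b2, a form of subunit 6B known from testis, measured 27.8, 25.2 and 41.1 CPM in AM at day 0, 1.11, 2.4, 7.71 and 4.93 at day 1, 9.64, 8.42 and 9.26 at day 3 and 30.1, 30, 35.7 and 36.2 at day 7. Days 0 and 7 lay above days 1 and 3 without overlap. Of the counts of Cox6b1 and Cox6b2 together, it held 16.9% ± 0.612 (SD, n = 3) at day 0, 2.38% ± 2.18 (n = 4) at day 1, 4.13% ± 0.123 (n = 3) at day 3 and 16% ± 1.38 (n = 4) at day 7. The day 1 against day 0 difference was not called in the fit of all groups (-2.96 ± 1.57, adjusted p = 0.29). In the fit of these 2 groups alone Cox6b2 was called lower at day 1 (-2.92 ± 0.62 SE, edgeR, BH-adjusted p = 0.0191). Other fits of 2 groups alone called it lower at day 3 than at day 0 (-1.78 ± 0.26 SE, edgeR, BH-adjusted p = 0.0017), where 8.69% of all genes were. It was called higher at day 7 than at day 3 (1.84 ± 0.18 SE, edgeR, BH-adjusted p = 2.79e-05), where 8.44% were. In BM its share was 1.09%, 2.24% and 5.40% at days 1, 3 and 7.

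Cox6a2, the heart and muscle form of subunit 6A, was near 0 except in BM at the later days. It measured 0, 0.146, 0.406 and 0 CPM in AM at day 7 and 4.38, 4.33 and 12.8 in BM at day 7, and 0, 0, 5.9 and 5.7 in BM at day 3. At day 7 all 3 BM libraries lay above all 4 AM libraries. Its share of Cox6a1 and Cox6a2 counts was 7.07% ± 4.33 (SD, n = 3) in BM and 0.106% ± 0.146 (n = 4) in AM at day 7. The difference was not called in the fit of all groups (adjusted p = 0.428) and was called in the fit of the 2 groups alone (adjusted p = 0.00277, edgeR), where 11.2% of all genes were called higher. Cox7a1, the muscle form of subunit 7A, stayed at or under 13 CPM in every library.

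**Figure D5:**
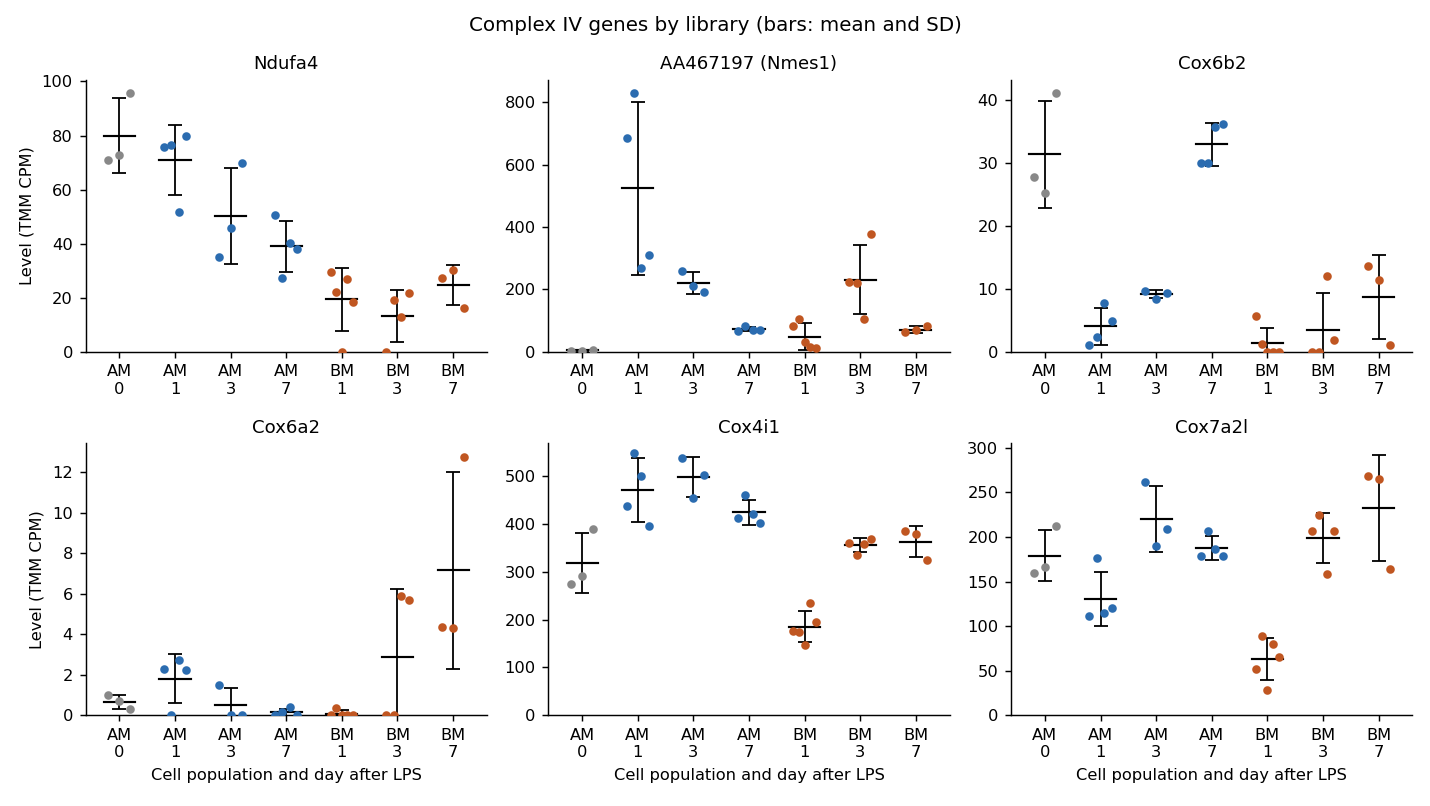
CPM (y axes, different scales) of Ndufa4, AA467197, Cox6b2, Cox6a2, Cox4i1 and Cox7a2l by group (x axis, population and day); points are libraries, bars the mean and SD. Ndufa4 is highest and AA467197 lowest in untreated AM, and Cox6b2 is at 25.2 CPM or more only in AM at days 0 and 7.

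The 3 c-ring genes encode the same mature protein behind different import sequences, so their shares are those of 1 product. Atp5g3 held most of the counts in every group, 57.6% ± 1.93 (SD, n = 3) in AM at day 0 and 66.5% ± 2.44 (n = 4) at day 7. Atp5g2 held 27% ± 1.06 in AM at day 0, 19.9% ± 5.60 (n = 5) in BM at day 1, 36.8% ± 4.53 (n = 4) at day 3 and 31.5% ± 1.99 (n = 3) at day 7. The BM libraries of days 3 and 7 all lay above the BM libraries of day 1. Atp5g1 measured 113, 161, 96.1 and 56.8 CPM in AM at day 1, 31.1 to 46.9 at day 7 and 0 in 1 BM library each of days 1 and 3.

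Ndufa4l2, a hypoxia-responsive paralog of Ndufa4, was at 73.9 CPM in the BM day 3 library that stands apart and at 0 in the other 3 BM libraries of day 3. That library also summed to 27619 CPM over 11 endothelial and fibroblast markers, against at most 447 in the other BM libraries.

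Genes that build, regulate or feed the chain were counted in the same comparison. Of 40 further assembly factors tested, 2 were called lower in BM than in AM at day 1, where 13.8% of all genes were: Cmc1 (-2.73 ± 0.92), a complex IV factor, and Uqcc3 (-2.36 ± 0.79), a complex III factor. Their median was -0.87. Of 19 genes of the citric acid cycle and pyruvate entry, 7 were called lower and 1 higher (median -0.74); the largest was Mpc1, a mitochondrial pyruvate carrier subunit (-2.67 ± 0.80 SE; edgeR, BH-adjusted p = 0.0146). Of 13 partners of the chain, such as nucleotide carriers and electron transfer flavoproteins, 7 were called lower (median -1.06). Among them Atpif1, the inhibitor of complex V, measured 64, 78.1, 35.1 and 59.8 CPM in AM and 1.25, 7.32, 3.14, 5.15 and 9.73 in BM, a log2 fold change of -3.48 ± 0.70 SE (edgeR, BH-adjusted p = 0.000504), and it rose in BM from day 1 to day 3 by 2.30 ± 0.68 SE (edgeR, BH-adjusted p = 0.0168). Of 13 genes of mitochondrial biogenesis, 0 were called lower and 1 higher, Polg, the mitochondrial DNA polymerase (1.15 ± 0.25 SE; edgeR, BH-adjusted p = 0.00113), with a median of -0.23.

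In AM one day after LPS, edgeR called 0 of 40 assembly factors (2 with an unadjusted p under 0.05; DESeq2 called 1), 0 of 19 citric acid cycle genes (3 and 0) and 0 of 13 biogenesis genes (2 and 1). Their medians were 0.26, 0.19 and 0.23, against -0.20 for all genes, of which 3.22% were called higher and 3.06% lower. Among partners of the chain, Acod1, which makes itaconate, rose by 6.44 ± 0.58 SE (edgeR, BH-adjusted p = 7.82e-08), beside AA467197, and Ucp2, an inner membrane carrier, changed by -0.97 ± 0.17 SE (edgeR, BH-adjusted p = 0.000463). In BM from day 1 to day 3, where 10.6% of all genes were called higher and 15.2% lower, 6 of 13 partners were called higher and 1 lower. For citric acid cycle genes the counts were 3 and 1 of 19, for assembly factors 2 and 1 of 40, and for biogenesis genes 1 and 3 of 13. These counts of small lists were not tested against the share of all genes.

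Genes with and without a promoter motif had medians near each other. In BM against AM at day 1, the 33 genes with at least 1 of the 4 motifs had a median of -1.35 with 23 called lower, and the 42 without had -1.40 with 27 called lower. In BM from day 1 to day 3 the medians were 0.81 (14 called higher) and 0.96 (15). In AM from day 0 to day 1 they were 0.65 (4 called higher) and 0.63 (1). The difference between the sets was not tested.

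Reads of near-identical copies could be split among genes. The annotation names 9 pseudogenes after 6 genes of the set, with 2603 counts in all against 4355711 for the set. The largest were Atp5k-ps2, with 1370 counts or 5.28% of those of Atp5k, and Ndufab1-ps, with 830 counts or 4.90% of those of Ndufab1. How reads that fit several genes were counted is not given in the sources used here.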

How the data were processed

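The authors deposited raw read counts per gene for 26 libraries of poly(A)-selected RNA, 9176202 to 80816742 counts each. Per the submitters' processing notes, the tools were featureCounts 2.0.0, HISAT2 2.1.0, Trimmomatic 0.39 and FastQC 0.11.9, with the GRCm38 build; strand and multi-mapping settings are not given in the sources used here. Gene names and lengths came from GENCODE M21, promoters from RefSeq (GRCm38.p6).

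Counts were tested with edgeR 4.0.16 (limma 3.58.1, R 4.3.3): a filter with a count minimum of 10 left 17143 genes, scaling was TMM, and 1 robust quasi-likelihood fit over the 7 groups gave 12 comparisons with Benjamini-Hochberg adjustment over all genes. SE is the log2 fold change divided by the square root of F. CPM are counts scaled by TMM to a common library total; log2 values use a pseudocount of 1. The steps were tested on simulated data.

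The members and lists were chosen with earlier results of these data known. Named were, per complex, up to 3 called members of largest change without overlap and with at least 5 CPM in the higher group, the highest per kilobase, the core subunits and isoform sets, and per pathway list the called gene of largest change. Alternatives were DESeq2 1.42.0, other scalings and filters, a replicate block, a Y-linked covariate, fits of the compared groups alone, and leaving out libraries. One gene is not reported by name here.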

Additional observations from a re-analysis of the deposited data

Results flagged for a closer look

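In groups of 4 or 5 libraries, 13 of 231 sets of values had 1 library far from the rest by Dixon's criterion, which chance alone gives in about 1 of 20. AM day 7 replicate 1 was lowest for the summed complex I subunits (1917 CPM, the others 1988 to 1998) and for Sdhd (117 CPM), and highest for Atp5j2 (143 CPM). AM day 1 replicate 2 was highest for Cox7a2l (176 CPM) and Uqcr11 (82.4 CPM), and AM day 1 replicate 3 was lowest for Ndufa4 (51.8 CPM). BM day 1 replicate 3, one of the libraries that stand apart, was highest for Ndufs4 (64.6 CPM) and Uqcrq (73.3 CPM), and BM day 1 replicate 1 for Cox6b2 (5.66 CPM). BM day 3 replicate 1, the other library that stands apart, was highest for Ndufs6 (209 CPM), Ndufs4 (87.6 CPM) and Ndufa4l2 (73.9 CPM, the others 0), and BM day 3 replicate 3 for Cox6b2 (12.1 CPM).

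The difference between BM and AM changed from day 1 to day 7 in 17 genes by the interaction term of the edgeR fit. In complex V the change on the log2 scale was 3.99 for Atp5k, 2.16 for Atp5j2, 2.11 for Atp5c1, 2.07 for Atp5g2, 1.24 for Atp5g3 and 1.08 for Atp5f1. In complex IV it was 1.91 for Cox5b, 1.90 for Cox6c, 1.49 for Cox7a2 and 1.12 for Cox4i1, and 10.04 for Cox6a2, whose counts are near 0 in 5 of 7 groups, so that its size depends on the prior count. In complex III it was 2.15 for Uqcrb, 1.28 for Uqcrq and 1.07 for Uqcrfs1. For Cycs it was 1.46, for Sdhd 1.29 and for Cox7a2l 1.36.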

How the results depend on the processing

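The lower levels in BM than in AM at day 1 (58 genes) and the rise in BM from day 1 to day 3 (34 genes) kept their direction under every alternative run, with 48 to 68 and 30 to 41 genes when 1 library was left out; the rise fell to 9 in a fit of its groups alone. When 1 library was left out, BM against AM at day 3 gave 0 to 4 genes lower, AM day 1 against day 0 gave 1 to 14 higher, AM day 3 against day 0 gave 0 to 4 higher, the gap change from day 1 to day 7 gave 10 to 26, BM day 3 against day 1 gave 0 to 1 lower, BM day 7 against day 3 gave 0 to 1 in either direction, and the other counts stayed at 0. The median log2 fold change of the set ran from -0.24 to 0.029 for AM day 3 against day 1, with the sign changed without AM day 1 replicate 2, and from -0.15 to 0.029 for BM day 7 against day 3, with the sign changed without BM day 3 replicate 2; the cause was not tested.

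Fits of the compared groups alone test fewer genes with fewer samples. They gave 0 lower for BM against AM at day 3, 28 lower and 1 higher at day 7, and for AM 20 higher and 1 lower at day 1, 34 and 1 at day 3 and 23 and 1 at day 7 against day 0, and 26 lower and 1 higher at day 7 against day 3. Without both libraries that stand apart the counts were 5 lower for BM against AM at day 3, 33 higher for AM at day 1 and 10 at day 3 against day 0, 1 higher for AM day 3 against day 1, 1 lower for BM day 7 against day 3 and 38 for the gap change. Without a filter on low counts they were 1, 5 (AM day 1), 0 (AM day 3) and 10 (gap change). DESeq2 called 21 higher for AM at day 1, 1 lower for AM day 3 against day 1 and 4 lower for BM day 7 against day 3. Over all 17143 genes its counts in these directions were 906, 318 and 453. Scaling by library size alone gave 1 higher for AM at day 3 against day 0. A term for library numbers above 25 among names that begin with 5341 gave 4 (AM day 1), 0 (AM day 3) and 6 (gap change), and the Y-linked covariate 0 for BM against AM at day 3. The libraries whose names begin with 5341, taken alone after the data were seen, gave 1 lower for BM day 7 against day 3. The cause of these shifts was not tested. Of 90 calls of named genes, 90 were kept by DESeq2, 89 without both libraries, 79 with the Y-linked covariate, 71 without the filter, 66 with the library number term and 62 in fits of the compared groups alone; in the rest the direction held and the threshold was missed.

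With the replicate number as a block, 50 genes were lower in BM at day 1, 2 at day 3 and 0 at day 7, 7 were higher in AM at day 1 and 0 at day 3 against day 0, 27 rose in BM from day 1 to day 3 and 14 had a changed gap; 75 of the 90 calls of named genes were kept under the block. These replicate numbers, taken from the titles, showed no pairing over all groups. Mean correlations of same-numbered deviations were -0.016 to 0.013, and 3 of 26 libraries were closest to their own number. The descriptions give other numbers for libraries of AM day 3, BM day 1 and BM day 7, and pairing by those was not tested. Libraries with few counts limit the low genes: Cox6a2, Cox6b2, Cox7a1 and Ndufa4l2 rest on levels near 0 in many libraries.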
